A study of Homo sapiens with 4 samples.

Results

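The 10 genes described here encode proteins of the tight junction. They are the claudins CLDN1, CLDN2, CLDN3, CLDN4, CLDN6, CLDN7 and CLDN12, occludin (OCLN), the junctional adhesion molecule F11R and the scaffold TJP1. They were taken by gene symbol from the 58735 genes counted, and all 10 were found. RNA was sequenced from MHCC-97H cells, an established metastatic hepatocellular carcinoma (HCC) line labelled wild type, with 1 library per condition, 4 in all and 1 batch by the labels. The cells received PBS or 2 μg of migrasomes (Migs), large vesicles left behind by migrating cells, for 24 h. Normo-Migs were released by the same line in normoxia, hypo-Migs by this line in hypoxia, and CD147KO-Migs by its CD147-knockout derivative in hypoxia, so the knockout lies in the donor cells and not in the cells sequenced. The study asked whether CD147 on hypo-Migs switches on signaling for vasculogenic mimicry, the forming of vessel-like channels by tumour cells.

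Tight junctions seal the space between epithelial cells. Claudins join into strands that decide which ions and solutes pass between cells, occludin and its relatives shape these strands, and ZO proteins such as TJP1 tie them to actin. In liver, tight junctions close off the bile canaliculi between hepatocytes, and claudin-1 and occludin are also entry factors for hepatitis C virus.

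Promoter windows of OCLN, CLDN7 and CLDN2 are shown because the former pair was lower in all 3 Mig libraries by at least 2-fold, and CLDN2 had reads only there. The sequences are from RefSeq (GRCh38.p14), in the direction of the gene, and run from 250 bases before a listed transcript start to 50 after it. Capitals mark CAGGTG or its reverse complement CACCTG, the E-box that SNAI and ZEB repressors are known to read. They are chr5:69492540-69492839 (plus strand), chr17:7262429-7262728 (minus strand) and chrX:106918110-106918409 (plus strand).
OCLN: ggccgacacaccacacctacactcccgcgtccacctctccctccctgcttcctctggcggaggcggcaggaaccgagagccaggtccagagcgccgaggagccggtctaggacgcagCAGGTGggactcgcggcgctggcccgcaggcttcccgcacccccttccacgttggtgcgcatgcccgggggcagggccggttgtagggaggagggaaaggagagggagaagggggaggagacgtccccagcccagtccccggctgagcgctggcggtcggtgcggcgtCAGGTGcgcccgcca
CLDN7: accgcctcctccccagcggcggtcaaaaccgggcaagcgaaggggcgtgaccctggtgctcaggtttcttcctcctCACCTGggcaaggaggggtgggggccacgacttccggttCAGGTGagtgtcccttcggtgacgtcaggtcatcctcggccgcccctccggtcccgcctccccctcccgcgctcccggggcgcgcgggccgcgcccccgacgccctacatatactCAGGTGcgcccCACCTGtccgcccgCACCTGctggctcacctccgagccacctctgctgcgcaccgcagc
CLDN2: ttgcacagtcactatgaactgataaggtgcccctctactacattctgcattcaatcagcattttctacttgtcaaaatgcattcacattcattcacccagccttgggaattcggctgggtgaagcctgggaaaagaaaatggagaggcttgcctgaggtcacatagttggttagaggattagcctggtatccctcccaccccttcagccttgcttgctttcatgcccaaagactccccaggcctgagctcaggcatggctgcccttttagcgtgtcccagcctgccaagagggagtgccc

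The CLDN7 window held 5 matches and the OCLN window 2, whereas the CLDN2 window held 0. The other listed start of CLDN7 and that of CLDN2 also held 0, and the other start of OCLN, whose window overlaps the one shown, held 1. Of the 10 genes, 9 had windows in the table, 15 in all, and 6 of these windows had at least 1 match (in CLDN3, CLDN6, CLDN7, OCLN and TJP1). Over all 35116 windows of the same length, 20.6% held a match and 0.635% held 3 or more. MARVELD2, described below, was also lower than PBS by at least 2-fold in all 3 Mig libraries. Its 1 window held 0 matches. A match describes these letters and is not a measured binding site.

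Reads on genes numbered between 33882496 (PBS) and 40285223 (hypo-Migs) per library. The library labelled PBS stood apart from the Mig libraries. It had 3 reads or fewer for 251 genes that had at least 100 reads in each of the others, a count that was 0 for each Mig library. The cell type was checked with marker lists. Of 13 hepatocyte markers, 5 (ALB, AFP, TTR, APOB and GPC3) were at 0 reads in every library, and the summed FPKM of the list was 0.680 with PBS and 7.17 to 9.75 with Migs. Of the sum with Migs, FGB alone gave 6.03 to 8.69 (0 with PBS), while SERPINA1 had 25 reads with PBS and 2 to 10 with Migs. The keratins KRT8 and KRT18, typical of liver epithelium, had at least 36742 reads in every library. Summed FPKM was 479 with PBS and 142 to 155 with Migs for 7 biliary markers, a difference that came almost wholly from KRT7 and KRT19. Of the same list, EPCAM, SOX9 and SPP1 were higher with Migs, SOX9 with 7 reads against 327 to 441 and SPP1 with 0 against 408 to 463. Summed FPKM of 8 fibroblast and stellate markers was 3.82 with PBS and 19.5 to 21.0 with Migs. Most of this came from COL1A1 (2.01 and 10.0 to 10.5) and PDGFRB (0.284 and 7.12 to 8.58). DCN and LUM were also higher with Migs. The other genes of this list were not higher in all Mig libraries: ACTA2 had 71 reads with PBS and 68 to 95 with Migs, COL3A1 27 and 14 to 27, RGS5 84 and 52 to 100, and COL1A2 2 and 0. Endothelial markers (7 genes, CLEC4G at 0) summed to between 0.619 and 0.907 FPKM, and leukocyte markers (6 genes, CD3E at 0) to 0.300 with PBS and 1.22 to 1.99 with Migs. The part of these differences in the values against PBS was not tested. With 1 library per condition, an effect of Migs and a difference of the PBS library or its cells for any other reason cannot be told apart, and whether this library is what its label says was not tested. Both limits hold for every value against PBS below. All 3 comparisons with PBS use that 1 library, so they are not independent of each other.

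Each value below comes from 1 library, so no difference has a replicate check, and no test between conditions was possible. FPKM, the authors' read count corrected for gene length and library size, orders genes within a library. Fold changes are ratios of reads after TMM scaling, and log2 fold changes carry a prior count of 2. Their exact 95% intervals, like all intervals here, cover counting error only. A gene was called past the fold where its level differed by 2-fold or more in either direction, the fold criterion of the study. Genes were tested against this limit if any library held 10 reads or more, which left 19895, with 9 of the 10 genes of interest (CLDN6 missed it).

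CLDN7 and CLDN1 were the most abundant of the 10 messages with PBS, and CLDN1 alone led in each Mig library. By FPKM, the order with PBS was CLDN7 (19.5), CLDN1 (16.6), F11R (12.9), TJP1 (9.45), CLDN3 (7.63), CLDN12 (7.13), OCLN (2.61) and CLDN4 (1.32). The counting intervals of CLDN3 and CLDN12 overlapped, and so did those of CLDN6 and CLDN2 at the bottom. With hypo-Migs, the FPKM order was CLDN1 (12.7), CLDN12 (8.03), TJP1 (7.60), F11R (6.61), CLDN7 (6.52), CLDN3 (3.86), CLDN2 (1.45), CLDN4 (1.04) and OCLN (0.124). Here the intervals of CLDN12 and TJP1, of F11R and CLDN7, and of OCLN and CLDN6 overlapped. CLDN1 had the highest FPKM and OCLN the second lowest in all 3 Mig libraries, and the places between F11R, TJP1, CLDN12 and CLDN7 changed from one to another.

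**Figure D1:**
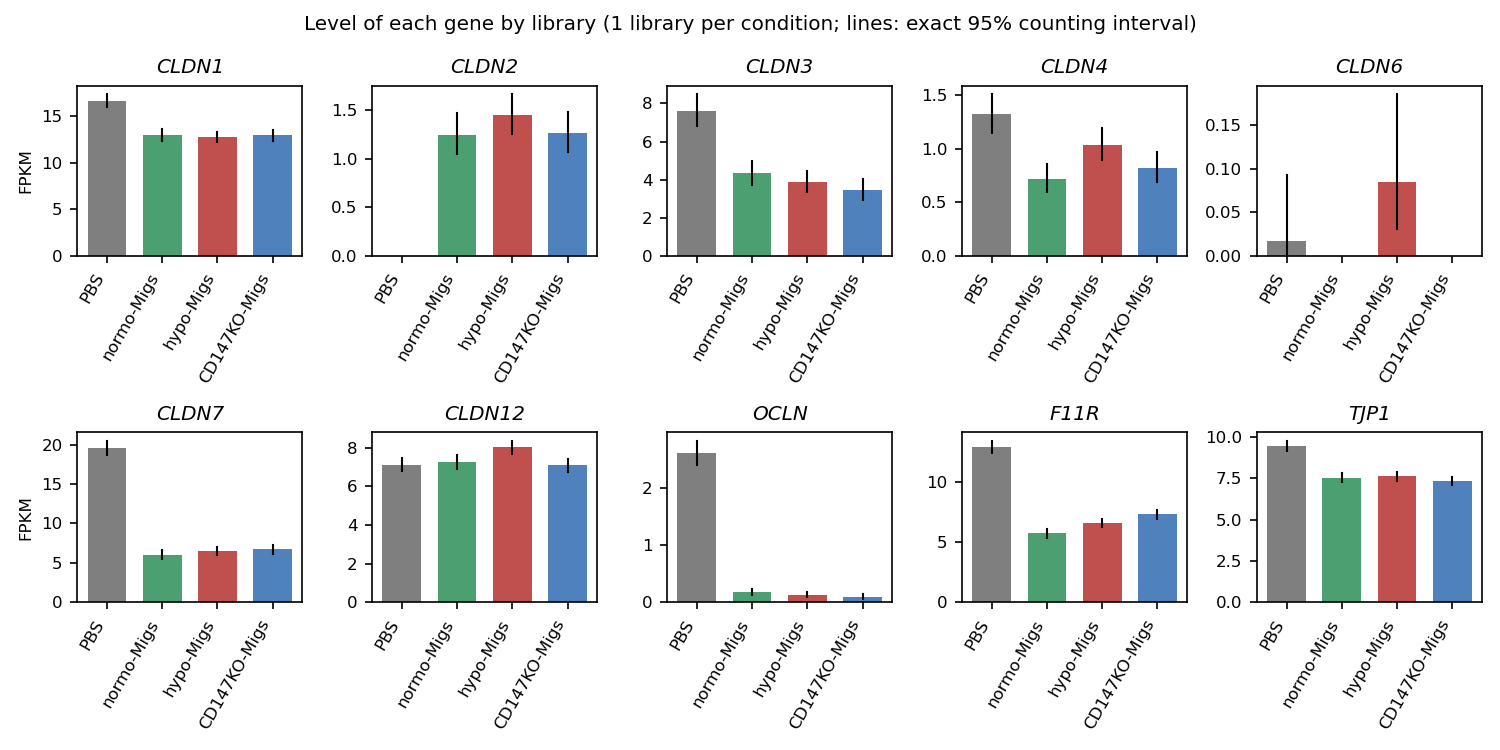
FPKM of the 10 genes (y axis, a scale of its own for each gene, starting at 0) in the 4 libraries; bars are single libraries and lines exact 95% counting intervals, left out at 0 reads. OCLN, CLDN7, F11R, CLDN3 and CLDN1 were highest with PBS, CLDN2 was read only with Migs, and CLDN12 differed little.

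Against the library labelled PBS, the genes of interest lay on both sides. In such bulk RNA, fewer cells that express a gene and less of its RNA per cell cannot be told apart. Of the 9 tested, 1 was higher by at least 2-fold and 3 were lower with normo-Migs, where 18.1% of all genes tested were higher and 12% lower by this rule. With hypo-Migs, 1 was higher and 2 were lower, beside 18.9% and 11.6% of all genes. With CD147KO-Migs, 1 was higher and 3 were lower, beside 18.3% and 12%. The shares lower (33.3%, 22.2% and 33.3%) were above those of all genes but rest on 2 or 3 genes each, and the gene that was higher, CLDN2, reached the read minimum only through the Mig libraries. The median log2 fold change of the 9 genes was -0.80, -0.37 and -0.67 for normo-, hypo- and CD147KO-Migs, where the median of all genes tested was 0.03, 0.04 and 0.03.

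**Figure D2:**
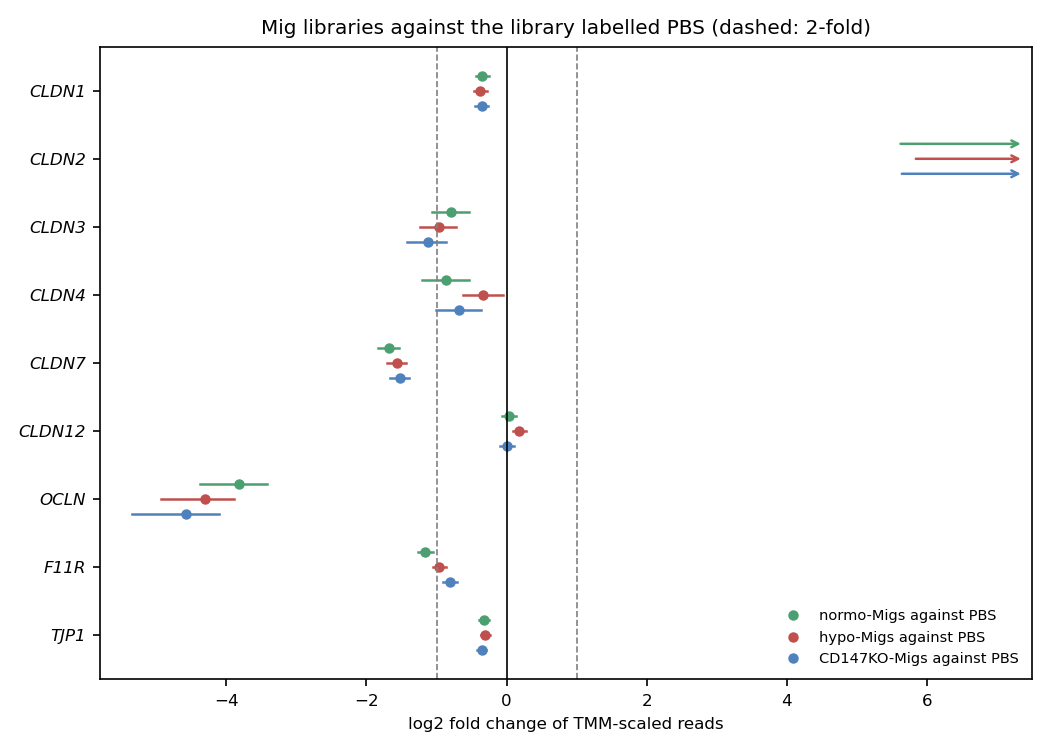
Log2 fold change (x axis) of each Mig library against the library labelled PBS for the 9 genes tested; points are values with a prior count of 2, lines exact 95% counting intervals, and arrows start at the lower bound of CLDN2 against the floor of 3 reads, since it had 0 reads with PBS. OCLN and CLDN7 lay below the 2-fold line in all 3 comparisons, and CLDN12 lay near 0.

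Among the 7 claudins of interest, CLDN7 differed most from PBS of those with reads in every library. Claudin-7 is a basolateral claudin that also binds EpCAM. In hg38, the build of all gene coordinates here, the gene (ENSG00000181885) is located on chromosome 17, minus strand, at 7259903 to 7263983. It had 1684 reads with PBS and 517, 658 and 592 with normo-, hypo- and CD147KO-Migs. Its reads were thus lower in every Mig library, while the Mig libraries differed little from each other. The library with normo-Migs was 3.22-fold lower than PBS (log2 -1.68, interval -1.83 to -1.54), that with hypo-Migs 2.98-fold (-1.57, -1.71 to -1.44) and that with CD147KO-Migs 2.89-fold (-1.53, -1.67 to -1.39). The gene model shares 38 exonic bases with ELP5 on the opposite strand. It also shares 269 with the gene model AC003688.1 on the same strand, which had 0 reads in every library.

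CLDN1 encodes a sealing claudin of many epithelia, bile canaliculi included. It (ENSG00000163347) is located on chromosome 3, minus strand, at 190305701 to 190322475. It had 2104 reads with PBS and 1633, 1887 and 1671 reads with normo-, hypo- and CD147KO-Migs, respectively. The log2 fold changes against PBS were -0.35, -0.37 and -0.35, with intervals that together spanned -0.47 to -0.25. The level was lower with Migs beyond counting error and far from the 2-fold limit.

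CLDN3 and CLDN4, both receptors of an enterotoxin of Clostridium perfringens, are neighbours on chromosome 7, with a gap of 29.3 kb. CLDN3 (ENSG00000165215, minus strand, 73768997 to 73770270) had 336 reads with PBS and 190, 199 and 155 with normo-, hypo- and CD147KO-Migs. Its log2 fold changes against PBS were -0.80 (-1.07 to -0.54), -0.97 (-1.23 to -0.72) and -1.13 (-1.42 to -0.86), so that only the last was past the fold. CLDN4 (ENSG00000189143, plus strand, 73799542 to 73832693) had 215, 116, 198 and 136 reads in the same order of libraries. The log2 fold change of CLDN4 was -0.86 (-1.21 to -0.54) with normo-Migs, -0.33 (-0.62 to -0.05) with hypo-Migs and -0.67 (-1.002 to -0.37) with CD147KO-Migs. Both genes were thus lower than PBS in all 3 Mig libraries, CLDN3 most with CD147KO-Migs and CLDN4 least with hypo-Migs. The FPKM of CLDN4 rests on a gene length of 4702 bases in the tables.

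CLDN12, a claudin that lacks the usual PDZ-binding end, was the member closest to PBS. It (ENSG00000157224) is located on chromosome 7, plus strand, at 90383721 to 90513402. Its reads were 1663 with PBS and 1684, 2191 and 1691 with normo-, hypo- and CD147KO-Migs. The log2 fold change against PBS was 0.04 (-0.06 to 0.14) with normo-Migs, 0.18 (0.09 to 0.27) with hypo-Migs and 0.00301 (-0.10 to 0.10) with CD147KO-Migs. This gene shares 347 exonic bases with GTPBP10 and 201 with CDK14 on the same strand, and how such reads were assigned is not given in the sources used here. CDK14 itself had 2328 reads with PBS and 670 to 808 with Migs.

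CLDN2 encodes a claudin that forms pores for cations and water and is typical of leaky epithelia. It (ENSG00000165376) is located on chromosome X, plus strand, at 106900164 to 106930861. It had 0 reads with PBS, which allows a level of up to 0.0885 per 1000000 reads on genes (CPM), counting 3 reads as the floor. With normo-Migs it had 146 reads (4.22 CPM, exact 95% interval 3.57 to 4.97), with hypo-Migs 200 (4.96 CPM, 4.30 to 5.70) and with CD147KO-Migs 152 (4.34 CPM, 3.68 to 5.08). Against the floor in PBS, CLDN2 was at least 49.3-fold higher with normo-Migs, at least 57.3-fold with hypo-Migs and at least 49.9-fold with CD147KO-Migs. RIPPLY1, which overlaps CLDN2 on the opposite strand, had 0 reads in every library, and MORC4 overlaps it without shared exonic bases.

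CLDN6, a claudin of embryonic epithelia, was at the limit of detection. It (ENSG00000184697, minus strand of chromosome 16, 3014712 to 3020071) had 1 read with PBS, 6 with hypo-Migs and 0 with normo-Migs and with CD147KO-Migs. No fold is given at this depth.

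Within the claudin family as a whole, 24 genes were counted, 7 of them described above. Their FPKM summed to 61.2 with PBS and to 39.3, 40.6 and 39.4 with normo-, hypo- and CD147KO-Migs. CLDN7 made up 31.9% of this sum with PBS and 15.3% to 17.1% with Migs. CLDN1 made up 27.1% with PBS and 31.3% to 33.0% with Migs, and CLDN12 11.6% and 18.0% to 19.8%. The share of CLDN2 was 0 with PBS and 3.17% to 3.56% with Migs. The most abundant claudin outside the 7 was CLDN15, another pore-forming claudin, with 10.0% of the sum with PBS and 8.07% to 9.98% with Migs. CLDN23 had 97 reads with PBS and 164 to 225 with Migs.

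**Figure D3:**
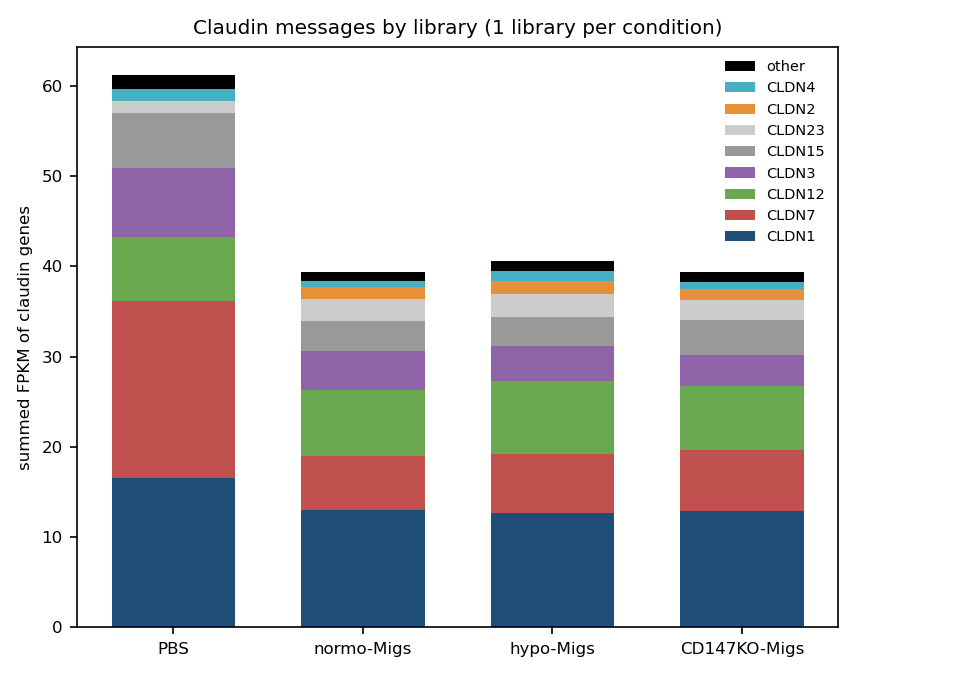
Summed FPKM of the 24 claudin genes (y axis, from 0) in each of the 4 libraries, divided by gene; there are no error bars, since each bar is 1 library. The bar of PBS reaches 61.2 and those of the Mig libraries 39.3 to 40.6, with most of the difference in the CLDN7 segment.

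OCLN had the largest difference from PBS among the 8 tested genes with reads in every library. Occludin spans the membrane with a MARVEL domain and is found along tight junction strands. The gene (ENSG00000197822) is located on chromosome 5, plus strand, at 69492292 to 69558104. It had 611 reads with PBS and 41, 34 and 24 with normo-, hypo- and CD147KO-Migs, or FPKM values of 2.61, 0.176, 0.124 and 0.100. OCLN was 14.7-fold lower than PBS with normo-Migs (log2 -3.82, interval -4.37 to -3.42), 20.9-fold with hypo-Migs (-4.30, -4.93 to -3.89) and 25.8-fold with CD147KO-Migs (-4.58, -5.34 to -4.10). OCLNP1, a pseudogene copy of OCLN, had 15 reads with PBS and 2 to 8 with Migs. How reads that fit both genes were handled is not given in the sources used here. The level of OCLN is thus uncertain by an amount that these counts do not give.

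The other MARVEL genes gave further values. MARVELD2 encodes tricellulin, the MARVEL protein of tricellular contacts, and lies 48.0 kb from OCLN on chromosome 5. It had 459 reads with PBS and 38, 53 and 40 with normo-, hypo- and CD147KO-Migs. Its log2 fold changes against PBS were -3.51, -3.28 and -3.48, past the fold and in the direction of OCLN. MARVELD3 had 26 reads with PBS and 5 to 17 with Migs.

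Other genes around OCLN were examined after these values had been seen. Within 500 kb of either end of OCLN, 13 protein-coding genes were tested. MARVELD2 was past the fold in all 3 comparisons and SERF1B in 2, where it had 90 reads with PBS and 119, 30 and 37 with normo-, hypo- and CD147KO-Migs. SERF1B has a near-identical copy, so its reads are uncertain. Whether other neighbours have such copies was not examined. The other 11 genes had log2 fold changes between -0.37 and 0.57 in the 3 comparisons. Over all genes tested, 11.6% to 12% were lower and 18.1% to 18.9% higher by at least 2-fold.

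**Figure D4:**
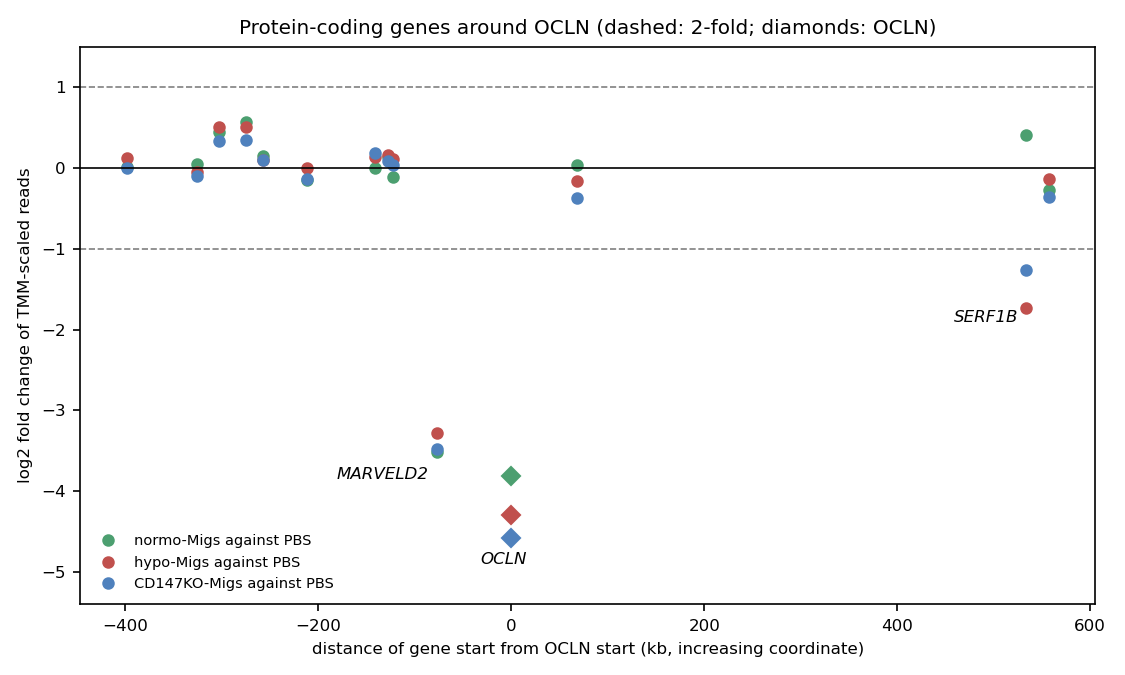
Log2 fold change against PBS (y axis) of the 13 protein-coding genes tested within 500 kb of OCLN, by the distance of their start from that of OCLN in kb (x axis); colours are the 3 Mig libraries, circles neighbours and diamonds OCLN. MARVELD2 and OCLN lie below -3, and 11 of the neighbours lie between the dashed 2-fold lines in all comparisons.

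F11R encodes JAM-A, an immunoglobulin-like adhesion molecule that binds ZO-1 and polarity proteins. The gene (ENSG00000158769) is located on chromosome 1, minus strand, at 160995211 to 161021348. It had 2265 reads with PBS and 999, 1355 and 1312 with normo-, hypo- and CD147KO-Migs. It was 2.24-fold lower than PBS with normo-Migs (log2 -1.16, interval -1.27 to -1.05), 1.94-fold with hypo-Migs (-0.96, -1.06 to -0.86) and 1.75-fold with CD147KO-Migs (-0.81, -0.91 to -0.71). Only the first was past the fold. F11R shares 1853 exonic bases with the gene model AL591806.3 on the same strand, which had 2 reads or fewer in each library.

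TJP1 encodes ZO-1, the scaffold that links claudins, occludin and JAM-A to actin. It (ENSG00000104067) is located on chromosome 15, minus strand, at 29699367 to 29968865. It had 3681 reads with PBS and 2909, 3465 and 2915 with normo-, hypo- and CD147KO-Migs. The log2 fold changes against PBS were -0.32, -0.30 and -0.36, and their intervals together spanned -0.43 to -0.24. The scaffold was thus lower with Migs by 1.25-, 1.24- and 1.28-fold, a smaller difference than those of OCLN and CLDN7.

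By the labels, hypo-Migs and normo-Migs differ in the oxygen supply of the donor cells, and hypo-Migs and CD147KO-Migs in their CD147. Normo-Migs and CD147KO-Migs differ in both, and the 2 cannot be told apart in that pair. None of the 9 genes tested was past the fold in any pair of Mig libraries. In hypo-Migs against normo-Migs the count was 0 of 9, beside 9.34% of all genes tested. In hypo-Migs against CD147KO-Migs it was 0 of 9, beside 9.12%, and in normo-Migs against CD147KO-Migs 0 of 9, beside 9.69%. An exact interval that left out a log2 fold change of 0 was found for 3 of the 9 genes (33.3%) in each of these pairs, beside 34.9%, 35% and 34.5% of all genes tested. These shares are near those of all genes. The median log2 fold change was 0.11, 0.16 and 0.00649 in the same order of pairs, beside 0 or nearly 0 over all genes tested.

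CLDN4 had its largest difference between Mig libraries with hypo-Migs. Its 198 reads there were 1.45-fold the level with normo-Migs (log2 0.53, interval 0.20 to 0.88) and 1.27-fold that with CD147KO-Migs (0.34, 0.02 to 0.67). CLDN12 was also highest with hypo-Migs, by a log2 fold change of 0.14 (0.05 to 0.24) against normo-Migs and 0.18 (0.08 to 0.27) against CD147KO-Migs. F11R was lowest with normo-Migs and highest with CD147KO-Migs, which gave -0.35 (-0.47 to -0.23) between these libraries, 0.20 (0.08 to 0.32) for hypo-Migs against normo-Migs and -0.15 (-0.26 to -0.04) for hypo-Migs against CD147KO-Migs. Between normo-Migs and CD147KO-Migs, OCLN had a log2 fold change of 0.76 (0.05 to 1.60) from 41 and 24 reads, and CLDN3 one of 0.33 (0.02 to 0.65). CLDN1, CLDN2, CLDN7 and TJP1 had intervals that held 0 in all 3 pairs. For CLDN2 these intervals together reached from -0.36 to 0.54, and for TJP1 from -0.06 to 0.12.

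**Figure D5:**
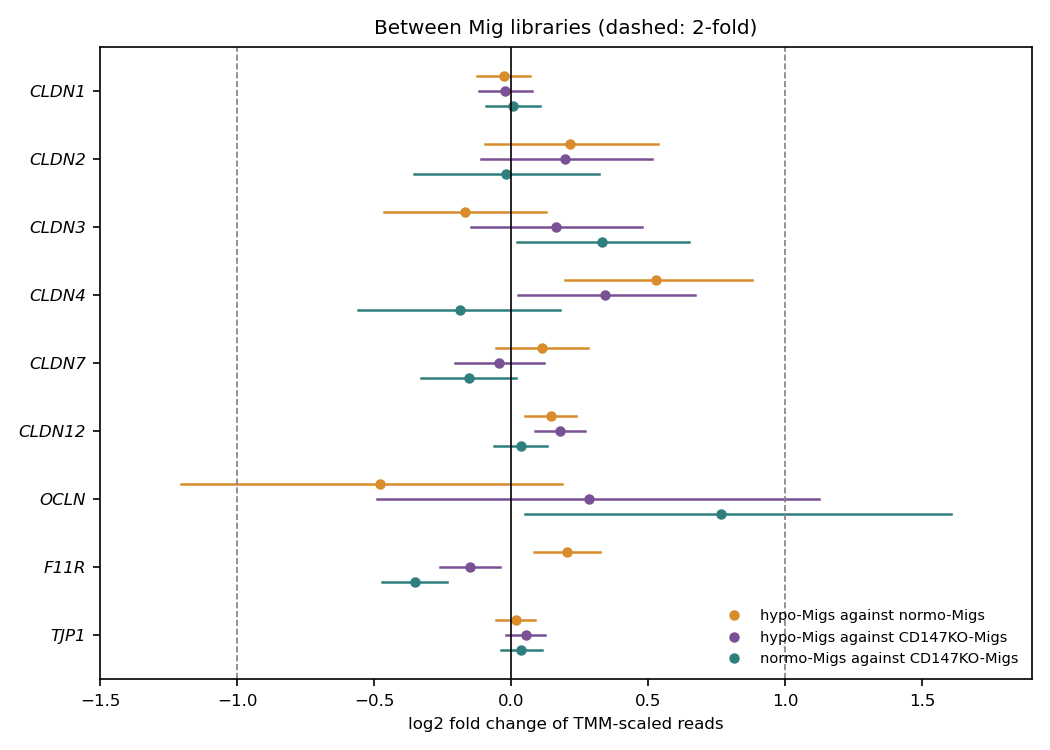
Log2 fold change (x axis) in the 3 pairs of Mig libraries for the 9 genes tested; points are values with a prior count of 2 and lines exact 95% counting intervals. All points lie between the dashed 2-fold lines, from -0.48 to 0.76, both of them for OCLN.

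Partners of these proteins were read from lists. Of 27 further strand, MARVEL, angulin and adhesion genes of the tight junction, 14 were tested. With normo-Migs 2 were higher and 5 lower than with PBS, with hypo-Migs 2 and 6, and with CD147KO-Migs 1 and 6, beside 18.1% to 18.9% of all genes tested that were higher and 11.6% to 12% that were lower. The median log2 fold change of the 14 genes was -0.58, -0.72 and -0.89, beside 0.03, 0.04 and 0.03 over all genes tested. LSR, which encodes the angulin that recruits tricellulin to tricellular contacts, had 2928 reads with PBS and 1304 to 1427 with Migs. The JAM-related gene ESAM had 246 reads with PBS and 81 to 124 with Migs. ILDR2, another angulin gene, went the other way, with 14 reads with PBS and 122 to 152 with Migs. CLDN5, also counted as higher with hypo-Migs, reached the read minimum only in that library. Between Mig libraries, 1 or 2 of the 14 genes were past the fold in each pair, beside 9.12% to 9.69% of all genes, and each had fewer than 100 reads in each library.

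All 35 scaffold and polarity genes of a further list were tested. Against PBS, 5 were higher and 4 lower with normo-Migs, 5 and 5 with hypo-Migs, and 6 and 5 with CD147KO-Migs, with list medians of -0.07, -0.05 and 0.03. Over all genes tested, 18.1% to 18.9% were higher and 11.6% to 12% lower, with medians of 0.03, 0.04 and 0.03, so the counts of this list are near those of all genes. CGN encodes cingulin, which binds ZO proteins and myosin. It had 71 reads with PBS and 947, 1230 and 1002 with normo-, hypo- and CD147KO-Migs, a level 13.5-fold, 14.9-fold and 13.9-fold that of PBS. Its paralog CGNL1 had 0 reads with PBS and 58 to 67 with Migs (this gene has fewer reads than the rule for named genes asks, and was chosen after its values were seen). AFDN, the gene of the actin-binding afadin, had 1697 reads with PBS and 3618 to 4330 with Migs. The messages of cingulin, CGNL1 and afadin were thus higher with Migs. Among the genes counted as higher, CGNL1, LIN7A and AMOT reached the read minimum only through Mig libraries. MAGI3 and PARD3 had log2 fold changes of 0.58 to 0.98, short of the fold (both chosen after their values were seen). TJP3, which encodes ZO-3, had 942 reads with PBS and 238, 319 and 371 with normo-, hypo- and CD147KO-Migs. CRB3, the gene of an apical polarity protein, had 553 reads with PBS and 97 to 164 with Migs. The angiomotin-like genes AMOTL1 and AMOTL2 had log2 fold changes between -1.62 and -1.16 in the 3 comparisons. Between Mig libraries, 1 gene of this list (LIN7A, at most 25 reads) was past the fold in hypo-Migs against normo-Migs and 0 in the other pairs. Over all genes tested, 9.12% to 9.69% were past the fold in these pairs.

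Of 30 genes of epithelial adhesion, membrane proteases and epithelial transcription, 27 were tested. With normo-Migs and with hypo-Migs 6 were higher and 9 lower than with PBS, and with CD147KO-Migs 6 and 10, with list medians of -0.13, -0.03 and -0.02. These counts stand beside the same 18.1% to 18.9% higher and 11.6% to 12% lower over all genes, and the medians beside 0.03, 0.04 and 0.03. CDH1, the gene of E-cadherin in adherens junctions, had 0 reads with PBS and 112 to 123 with Migs. Against the floor of 3 reads in PBS, its level was at least 35.3-fold higher in each comparison. RAB25, which encodes a small GTPase of epithelial recycling, also had 0 with PBS, and 90 to 123 with Migs. The desmosomal cadherin gene DSC2 had 30 reads with PBS and 582 to 803 with Migs. OVOL2, which encodes a transcription factor of epithelial cells, had 25 reads with PBS and 118 to 184 with Migs. These 4 genes were higher with Migs, in the direction opposite to OCLN and CLDN7. Of them, CDH1 and RAB25 reached the read minimum only through the Mig libraries, so they could only be called higher. Lower with Migs were MAL2, whose protein acts in apical transport (2582 reads with PBS and 3 to 11 with Migs), KRT19, a keratin of ductal epithelium (11287 and 32 to 75), and CDH3, the gene of P-cadherin (392 and 71 to 115).

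Matriptase, a membrane protease encoded by ST14, is known to cleave EpCAM, and prostasin, encoded by PRSS8, works in a cascade with it. ST14 had 780 reads with PBS and 40, 63 and 60 with normo-, hypo- and CD147KO-Migs, and PRSS8 had 297, 35, 15 and 21 in the same order. Of the genes of their inhibitors, SPINT2 had 100 reads with PBS and 549 to 659 with Migs, and SPINT1 had 1623 and 1417 to 1847 (log2 fold changes of -0.18, -0.03 and 0.04, chosen after its values were seen). EPCAM itself had 578 reads with PBS and 1451 to 1834 with Migs (chosen after its values were seen, as the partner of CLDN7). Both protease messages were lower with Migs, as was CLDN7, while those of SPINT2 and EPCAM were higher and that of SPINT1 was short of the fold. Between Mig libraries, 1 or 2 genes of this list were past the fold in each pair, beside 9.12% to 9.69% of all genes tested. None of those genes of the list had 100 reads in any Mig library.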

How the data were processed

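Data were deposited as 2 tables of the same 58735 genes, from 4 libraries of MHCC-97H cells. The deposited raw counts are reads that the authors counted on each gene, without normalization, and their FPKM values divide these by gene length and library size. The submitters' processing notes name CASAVA 1.8, fastp, HISAT2 2.0.5, featureCounts 1.5.0-p3 and hg38. Messages were enriched with poly-T beads. Strand handling and annotation release are not given in the sources used here. The coordinates of all 10 genes were those of GENCODE release 29.

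Genes were matched by Ensembl identifier, with symbols from the FPKM table. Libraries were scaled by TMM (edgeR 4.0.16 in R 4.3.3; factors 1.02 for PBS, 0.986, 0.996 and 0.999 for normo-Migs, hypo-Migs and CD147KO-Migs). Tables, exact Clopper-Pearson and Poisson intervals and figures used Python 3.11.15, scipy 1.17.1 and matplotlib 3.10.9. DESeq2, which the study used, needs replicates for its test, so DESeq2 1.42.0 gave only size factors. The computation of fold calls and intervals was run on simulated counts that varied by counting error alone. Such a run cannot show how the calls hold up to variation between libraries. Named partner genes had at least 100 reads in at least 1 library and were past the fold in 1 direction in all 3 comparisons with PBS, up to 5 per direction and list, or had at least 100 reads in a Mig library and were past the fold between Mig libraries. The genes and lists were chosen with earlier results of these data known. Reads carry no molecular identifiers, so copies made in amplification could not be told apart by them. With 1 library per condition, intervals cover counting error only.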

Additional observations from a re-analysis of the deposited data

How the results depend on the processing

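Alternatives covered scaling (size factors of DESeq2, total reads, TMM over the Mig libraries alone), the filter on reads, the prior count, log2(FPKM + 1), the call rule and protein-coding genes alone. Of 63 alternative counts of genes past the fold, 59 were within 1.5 times the reported count. At 1.5-fold in place of 2-fold, hypo-Migs against PBS gave 5 genes, with CLDN3 and F11R added, and normo-Migs against CD147KO-Migs gave 1, OCLN. Without a filter on reads, CLDN6 was the 1 gene past the fold in hypo-Migs against normo-Migs and in hypo-Migs against CD147KO-Migs, from 6 reads and 0. A rule that added an adjusted p of 0.05 or less in edgeR's exact binomial test, which compares 2 libraries and not conditions, kept each count against PBS at 4, 3 and 4 and each count between Mig libraries at 0. Among alternative log2 fold changes, 261 lay within the exact interval of the reported value, 9 did not and 0 changed the sign of a called one. The 9 were on the log2(FPKM + 1) scale, where OCLN against PBS was -1.62 to -1.72, CLDN2 1.17 to 1.29, CLDN4 -0.43 and -0.35 with normo-Migs and CD147KO-Migs, and F11R -1.05 with normo-Migs, since this scale understates changes of low genes. It also left CLDN3 short of the fold with CD147KO-Migs. A minimum of 10 reads in every library left CLDN2 untested. No paired analysis was possible because each condition has 1 library. Depth limits CLDN6 and the comparison of OCLN between Mig libraries, which rests on 24 to 41 reads.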

Other observations

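Claudin-1 and occludin act in hepatitis C virus entry together with CD81 and the scavenger receptor encoded by SCARB1, so these genes were read after the values of the others had been seen. CD81 had 5765 reads with PBS and 6520, 7391 and 6293 with normo-, hypo- and CD147KO-Migs, and its log2 fold changes against PBS were 0.20, 0.14 and 0.11. SCARB1 had 8748 reads with PBS and 12844 to 15034 with Migs, with log2 fold changes of 0.65, 0.56 and 0.53. By FPKM, CD81 (22.5 to 25.7) and SCARB1 (32.7 to 51.0) were above CLDN1 (12.7 to 16.6) and OCLN (0.100 to 2.61) in every library. Of the 4 entry genes, OCLN was the 1 past the fold against PBS.

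The surroundings of CLDN3 and CLDN4 were read in the same way as those of OCLN. Of the 18 protein-coding genes tested within 500 kb of CLDN3, 0 were lower by at least 2-fold against PBS in any of the 3 comparisons, and 2 or 3 were higher. Their median log2 fold change was -0.42, -0.38 and -0.37 with normo-, hypo- and CD147KO-Migs. FZD9, which encodes a Frizzled receptor, was the highest of them, with 64 reads with PBS and 374 to 443 with Migs. Around CLDN7, 47 protein-coding genes were tested, of which 8 to 11 were lower and 7 or 8 higher by at least 2-fold. Over all genes tested, 11.6% to 12% were lower and 18.1% to 18.9% higher by this rule.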
